A study of Rattus norvegicus with 6 samples.

Results

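The Notch genes followed here are 10 of the 32883 genes in the deposited table, taken by symbol: the receptors Notch1, Notch2 and Notch3, the ligands Jag1, Jag2, Dll1 and Dner, and the target genes Hes1, Hes5 and Hey1. RNA was sequenced from the vestibular epithelium of 6 Long-Evans rats. The 3 STREP animals received streptomycin, an aminoglycoside antibiotic that is toxic to hair cells (HCs), at 500 mg/kg by daily subcutaneous injection for 6 weeks from postnatal day 21, and the 3 Control animals received the vehicle PBS. Each group held 2 males and 1 female, and each library pooled the 2 utricles and 6 cristae of 1 animal. In both groups, males are replicates 1 and 2 and the female is replicate 3. The titles of STREP replicates 1 and 2 carry the same number and differ by 1 letter, and they were counted as 2 animals because the protocol and the methods give 1 animal a library. With their counts summed as 1 sample, an alternative chosen after seeing the data, Notch1 was still the only one of the 10 genes called (log2 fold change 1.00, DESeq2 adjusted p = 1.1e-05). In a whole-tissue library, fewer cells of a type and less RNA per cell cannot be told apart.

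Notch signalling passes between touching cells. A Delta-like or Jagged ligand on one cell binds a Notch receptor on its neighbour, the receptor is cut by an ADAM protease and by gamma-secretase, and its freed intracellular domain enters the nucleus, joins the DNA-binding protein RBPJ and switches on repressors of the HES and HEY families. In the developing inner ear, nascent HCs present Dll1 and Jag2 and signal through Notch1 to their neighbours, where HES proteins hold down Atoh1, the HC fate gene, so that those neighbours become supporting cells. Dner encodes a transmembrane relative of the Delta ligands that is found in HCs.

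The sequences below were searched for the motif bound at the step between receptor and target. They are the 250 bases upstream of the annotated start site of the target genes Hes1 and Hes5, of the ligand gene Dll1 and of the receptor gene Notch1, read in the direction of transcription from RefSeq on the build GRCr8. Capitals mark the core of the RBPJ binding motif, GTGGGAA, or its reverse complement, TTCCCAC.
Hes1: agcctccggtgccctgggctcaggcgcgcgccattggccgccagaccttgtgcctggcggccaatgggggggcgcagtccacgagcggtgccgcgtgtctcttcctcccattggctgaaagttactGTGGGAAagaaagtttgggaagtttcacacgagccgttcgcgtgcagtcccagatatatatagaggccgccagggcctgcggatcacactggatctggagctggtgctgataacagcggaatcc
Hes5: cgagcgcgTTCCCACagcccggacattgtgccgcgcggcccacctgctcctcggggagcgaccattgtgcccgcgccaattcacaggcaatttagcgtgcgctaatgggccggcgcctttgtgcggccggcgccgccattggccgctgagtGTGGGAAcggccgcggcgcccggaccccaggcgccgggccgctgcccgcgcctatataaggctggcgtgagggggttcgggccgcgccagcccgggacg
Dll1: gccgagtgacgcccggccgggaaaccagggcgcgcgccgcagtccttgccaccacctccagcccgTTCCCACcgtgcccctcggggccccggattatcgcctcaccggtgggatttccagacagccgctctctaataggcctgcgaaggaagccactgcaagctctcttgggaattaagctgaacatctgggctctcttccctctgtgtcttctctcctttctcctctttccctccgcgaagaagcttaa
Notch1: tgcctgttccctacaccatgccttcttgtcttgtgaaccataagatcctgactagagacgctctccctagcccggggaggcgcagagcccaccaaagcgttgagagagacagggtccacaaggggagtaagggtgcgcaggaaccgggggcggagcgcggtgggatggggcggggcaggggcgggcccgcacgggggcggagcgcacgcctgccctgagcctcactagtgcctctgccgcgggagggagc
The Hes1 stretch lies at chr11:84213046-84213295 on the minus strand, that of Hes5 at chr5:170804327-170804576 on the plus strand, that of Dll1 at chr1:64993275-64993524 on the minus strand and that of Notch1 at chr3:29721614-29721863 on the minus strand. Hes1 held 1 core, whose first letter is 124 bases before the start site. Hes5 held 2 cores, at 242 bases before the start site on the opposite strand and at 99 bases on the same strand, and Dll1 held 1 on the opposite strand, at 185 bases. Of the 10 stretches found for 9 of the 10 genes (Jag2 has 2 start sites and Hey1 had no entry), 3 held the core on either strand, against 5.27% of 33469 stretches of the same length from all genes. The N box CACNAG, a site that HES proteins bind, occurred on either strand in 37.2% of all stretches and in 3 of these 10, 4 times each in those of Hes1 and Notch1 and 1 time in that of Notch3. These matches are descriptions of the letters, not sites shown to be in use.

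Library totals were 48568191 to 59906048 counts in Control animals and 29333584 to 33744909 in STREP animals, so depth did not overlap between groups. Normalised counts are counts divided by a size factor of each library, and a floor of 3 counts corresponded to 1.84 to 4.49 normalised counts, a figure that covers counting error only. A gene was called when its DESeq2 adjusted p was under 0.05 and its fold change exceeded 1.5 in either direction, which held for 3.24% of the 16250 genes tested, 1.87% higher and 1.37% lower. The 3 values of each group did not overlap for 17.8% of these genes, 9.12% higher and 8.63% lower. The median log2 fold change of all tested genes was 0.0069.

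Notch1 was the member that rose. Notch1 (ENSRNOG00000019322), the main receptor of HC and supporting cell patterning, measured 7188, 6881 and 8325 normalised counts across Control replicates 1, 2 and 3, against 12503, 12729 and 17198 across STREP replicates 1, 2 and 3. Every STREP animal was above every Control animal, and the female held the highest value of each group. The means were 7465 ± 761 and 14144 ± 2648 normalised counts (SD, n = 3), a 1.89-fold rise with a 95% confidence interval of 1.52 to 2.37. On the log2 scale this was 0.92 ± 0.16 (SE, DESeq2 adjusted p = 3.23e-06). Its log2 fold change stayed between 0.76 and 1.01 with each animal left out, with DESeq2 adjusted p of at most 0.000727. With edgeR it was 0.92, and the quasi-likelihood adjusted p was weaker, 0.0208 with a count filter and 0.0132 without. When every library was thinned at random to the smallest total it was 0.94, and with library totals as size factors 0.88. With the fold change of 1.5 tested as a null value inside the Wald test, Notch1 was no longer called (adjusted p = 1.0).

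The other receptors did not pass the test. Notch2 (ENSRNOG00000018835), a receptor expressed in many tissues, had 5089, 5850 and 5397 normalised counts in Control and 6669, 6986 and 5997 in STREP replicates. The groups did not overlap, but the log2 difference was small, 0.27 ± 0.13 (SE, DESeq2 adjusted p = 0.373), with a fold change interval of 1.01 to 1.44. Notch3 (ENSRNOG00000004346), the receptor best known from the mural cells of blood vessels, had 475, 375 and 387 normalised counts in Control and 551, 418 and 364 in STREP replicates. These values overlapped, with the highest and the lowest of the 6 both among STREP animals, and the log2 fold change was 0.11 ± 0.24 (SE, DESeq2 adjusted p = 0.958). The summed level of 7 mural cell markers was 4214 to 5605 normalised counts in Control and 3886 to 6278 in STREP animals. Of the 7, 0 were called, beside 3.24% of all genes. The summed level of 9 endothelial markers was 15442 to 17456 in Control and 14882 to 18846 in STREP animals, again with 0 called.

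**Figure D1:**
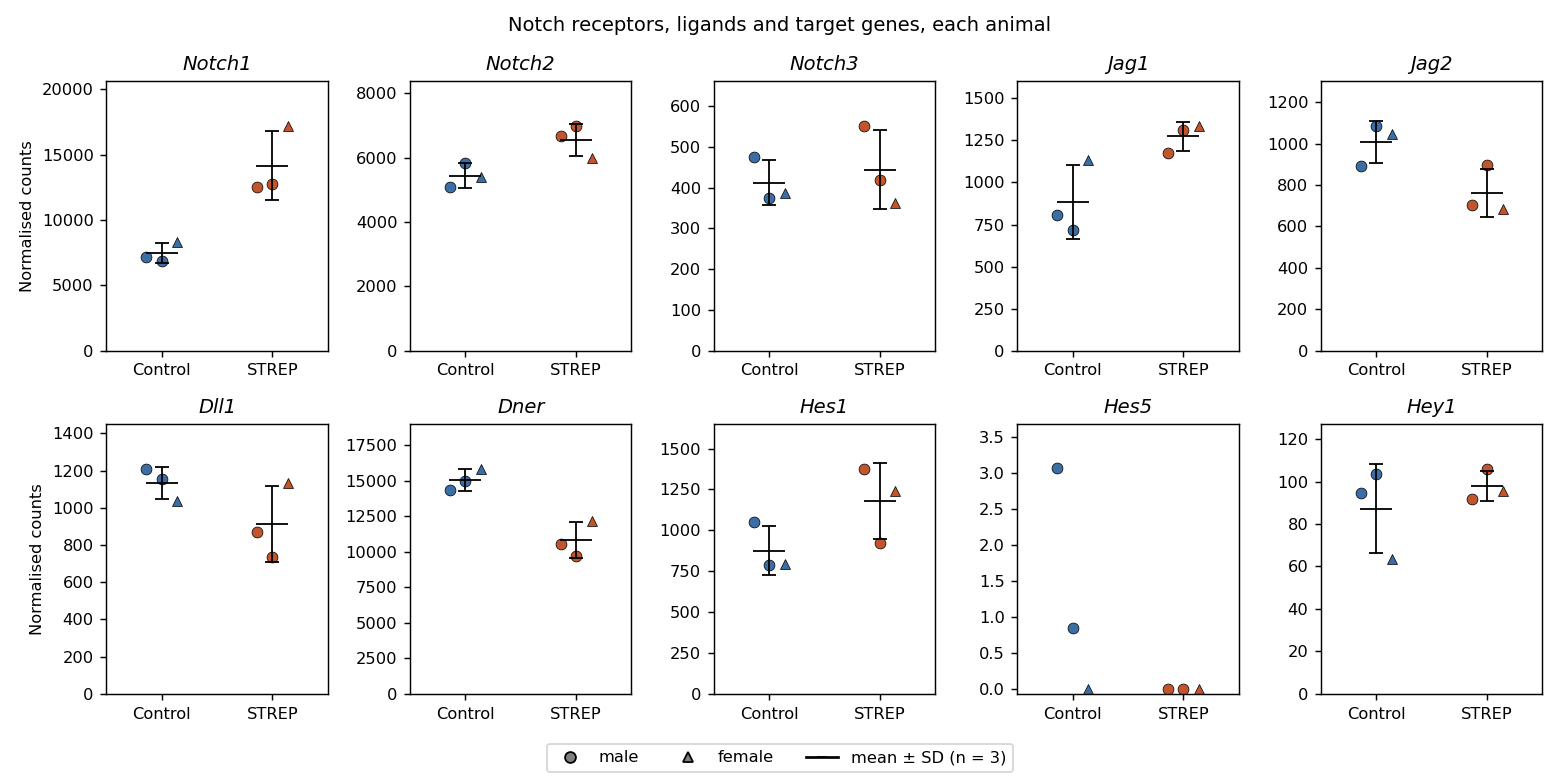
Normalised counts (vertical axes, linear, each panel on its own scale) of the 10 Notch genes in each animal, with circles for males, triangles for females and bars for the mean ± SD of 3 animals, except for Hes5. Notch1 lies between 12503 and 17198 in STREP animals, above the Control range of 6881 to 8325, Dner lies lower in STREP animals without overlap, and Hes5 is at or near 0.

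Among the ligands, Dner was lower in STREP animals. Dner (ENSRNOG00000016640) had 14316, 15002 and 15816 normalised counts in Control and 10566, 9741 and 12192 in STREP replicates. All STREP values were below all Control values, and the female again held the highest value of each group. The STREP level was 0.720 times the Control level (95% confidence interval 0.600 to 0.863), equal to -0.47 ± 0.13 (SE) on the log2 scale. The DESeq2 adjusted p of 0.0151 passed the threshold, as it did for 3.72% of all tested genes at any fold and for 1.62% in the lower direction, but the fold change did not reach 1.5, so Dner was not called. This adjusted p was above 0.05 with edgeR (0.180 with a count filter), with library totals as size factors (0.103), with STREP replicates 1 and 2 summed as 1 sample (0.0844), and without Control replicate 2 (0.0828), Control replicate 3 (0.132), STREP replicate 1 (0.106) or STREP replicate 2 (0.0676). The DESeq2 adjusted p stayed under 0.05 with TMM size factors (0.0112), with sex as a covariate (0.000866), among males alone (0.0110) and with thinned libraries (0.0223). It also did so without Control replicate 1 (0.0375) or STREP replicate 3 (7.8e-05). The log2 fold change stayed between -0.57 and -0.41 over the omissions. Dner stands on the study's own list of genes lower in every model, which partly rests on these 6 animals and is no independent evidence. That list also required a fold change over 1.5, which Dner did not reach in the fit used here. Separately, the study reported lower DNER immunofluorescence in crista HCs of streptomycin rats, a measure of protein per HC and not of RNA in whole tissue.

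Jag1 was the ligand whose STREP values all lay above the Control values. Jag1 (ENSRNOG00000007443), the ligand that marks the prosensory domain and later the supporting cells, had 804, 716 and 1134 normalised counts in Control and 1176, 1313 and 1336 in STREP replicates. The Control female lay close to the lowest STREP animal, whereas both Control males lay well below. The log2 fold change was 0.53 ± 0.21 (SE, DESeq2 adjusted p = 0.171), a fold change of 1.44 with an interval of 1.09 to 1.91. Without Control replicate 3, the female, Jag1 was called higher (0.75, DESeq2 adjusted p = 0.0028). With sex as a covariate the log2 fold change was 0.55 (DESeq2 adjusted p = 0.0491), short of the 1.5-fold threshold, and among males alone it was 0.71 (DESeq2 adjusted p = 0.0544).

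The ligands that HCs present to their neighbours had lower means in STREP animals but did not pass the test. Jag2 (ENSRNOG00000013927) had 892, 1085 and 1046 normalised counts in Control and 706, 895 and 682 in STREP replicates, so that only STREP replicate 2 reached the lowest Control value. The log2 fold change was -0.40 ± 0.19 (SE, DESeq2 adjusted p = 0.328), with a fold change interval of 0.585 to 0.977. Dll1 (ENSRNOG00000059984) had 1208, 1153 and 1038 normalised counts in Control and 872, 734 and 1135 in STREP replicates. Both STREP males were below all Control animals, and the STREP female was within the Control range. The log2 fold change was -0.31 ± 0.20 (SE, DESeq2 adjusted p = 0.600). The size of this value moved with single STREP animals, at -0.18 without STREP replicate 2 and -0.50 without STREP replicate 3, and it stayed negative with each animal left out. It was -0.56 among males alone.

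The target genes did not pass the test either. Hes1 (ENSRNOG00000001720), a repressor whose upstream sequence with 1 RBPJ core is printed above, had 1049, 786 and 793 normalised counts in Control and 1374, 921 and 1243 in STREP replicates. STREP replicate 2 lay inside the Control range and the other two above it. The log2 fold change was 0.43 ± 0.21 (SE, DESeq2 adjusted p = 0.386), and the fold change interval ran from 1.01 to 1.79. Hey1 (ENSRNOG00000011593), a repressor of the HEY family, had 94.5, 104 and 63.6 normalised counts in Control and 91.9, 106 and 95.7 in STREP replicates. The groups overlapped, and the log2 fold change of Hey1, 0.16 ± 0.39 (SE, DESeq2 adjusted p = 0.961), became -0.0042 among males alone, and its fold change interval of 0.639 to 1.91 leaves changes of either sign within the error. Hes5 (ENSRNOG00000013850), the HES gene of supporting cells that holds 2 RBPJ cores in the sequence above, had 5, 1 and 0 counts in Control and 0 counts in all 3 STREP libraries. These are at or near the floor, the DESeq2 fit gave it no adjusted p, and a difference was not detectable at this depth.

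Of the 10 genes, 9 had an adjusted p, 1 was called higher and 0 lower, beside 3.24% called among all genes. For 4 of the 9 the groups did not overlap, namely Notch1, Notch2 and Jag1 higher and Dner lower, beside 17.8% of all genes. The median log2 fold change of the 9 was 0.16.

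**Figure D2:**
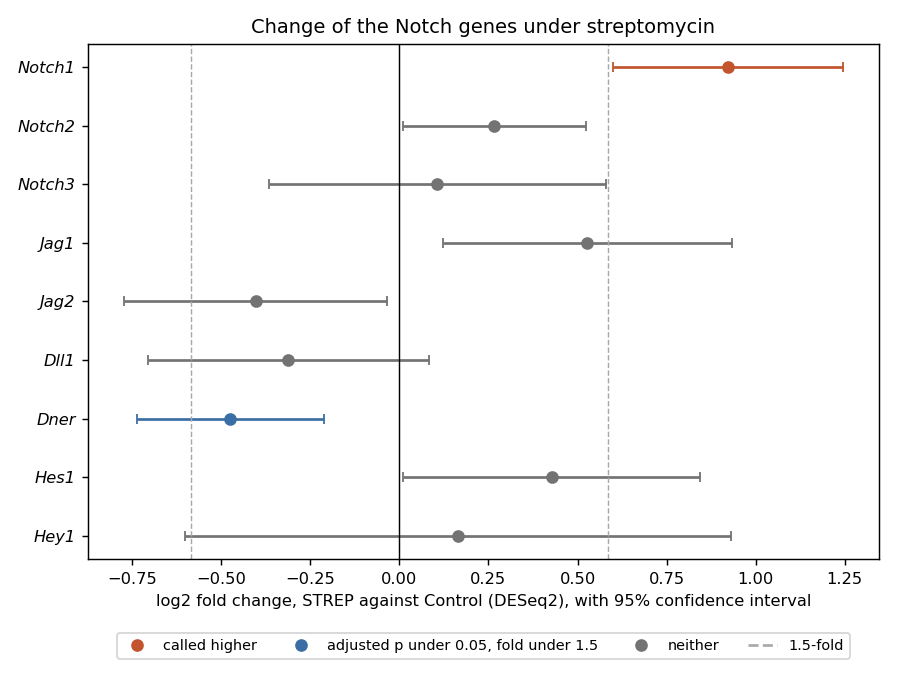
DESeq2 log2 fold change of STREP against Control (horizontal axis) for the 9 Notch genes with an adjusted p, with bars for the 95% confidence interval of each gene alone, not adjusted for the number of genes. The dashed lines mark a fold change of 1.5 in either direction, and the interval of Notch1 (0.60 to 1.24) is the only one that lies wholly beyond such a line.

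Ratios between 2 genes within an animal do not depend on the size factor, and were used to ask whether members changed by unequal amounts. Transcript length was not divided out, so each log2 ratio is compared between animals and not read as a difference in level between genes. The log2 ratio of Notch1 to Notch2 was 0.50, 0.23 and 0.63 in Control and 0.91, 0.87 and 1.52 in STREP replicates, a difference of 0.64 between the means, with all STREP animals above all Control animals. That of Notch1 to Notch3 differed by 0.82, again with no overlap, and by 0.53 without STREP replicate 3. The ratios between ligands did not overlap either. The log2 ratio of Jag1 to Jag2 was -0.15, -0.60 and 0.12 in Control and 0.74, 0.55 and 0.97 in STREP replicates, a difference of 0.96, and that of Dll1 to Jag1 went from a mean of 0.38 to -0.50, a difference of -0.88. Each of these 4 differences had an exact two-sided permutation p of 0.1, the smallest that 3 animals against 3 allow. After Benjamini-Hochberg adjustment over the 7 ratios tested this permutation p was 0.175. The pairs were chosen with earlier results of these data known, and no share of non-overlap over other gene pairs was computed. Each of the 4 ratios holds Notch1 or Jag1, so they are not independent of each other or of the changes given above. The ratio of Hes1 to Hey1 overlapped between groups (0.23, exact permutation p = 0.5), and the difference ran from 0.019 without Control replicate 2 to 0.46 without STREP replicate 2.

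Dner was also set against HC genes that mark all HCs. Its log2 ratio to Myo7a, a motor protein of HC bundles, was 1.39, 1.68 and 1.80 in Control and 1.65, 1.37 and 1.88 in STREP replicates. The means of 1.62 and 1.63 differed by 0.010 (exact permutation p = 1.0), a difference whose sign turned without Control replicate 1 or STREP replicate 3. Myo7a itself was lower in STREP animals without overlap (-0.49, DESeq2 adjusted p = 0.0162, short of the 1.5-fold threshold), so both genes of this ratio had lower counts. Its log2 ratio to Pou4f3, an HC transcription factor, had means of 1.45 and 1.13, a difference of -0.31 (exact permutation p = 0.2), and 1 of the 3 STREP animals reached the Control range. The summed level of 10 HC markers was 81746 to 86460 normalised counts in Control and 70850 to 84285 in STREP animals, and none was at 0. The log2 fold change was negative for 8 of the 10, with a median of -0.19, and 4 had lower STREP values without overlap, beside 8.63% of all genes. Strc, which encodes a protein of the hair bundle, was called lower (-1.35, DESeq2 adjusted p = 0.0151), and Gfi1, an HC transcription factor, was called higher (means of 1525 and 3505 normalised counts, DESeq2 adjusted p = 2.37e-06). Strc and Gfi1 were the 2 of the 10 that were called, beside 3.24% of all genes, and are named after their values were seen. The study counted HCs in rats treated together with the sequenced animals. It reported no significant difference in any region, with lower mean counts after streptomycin. The part of HC number in the Dner value was not tested.

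**Figure D3:**
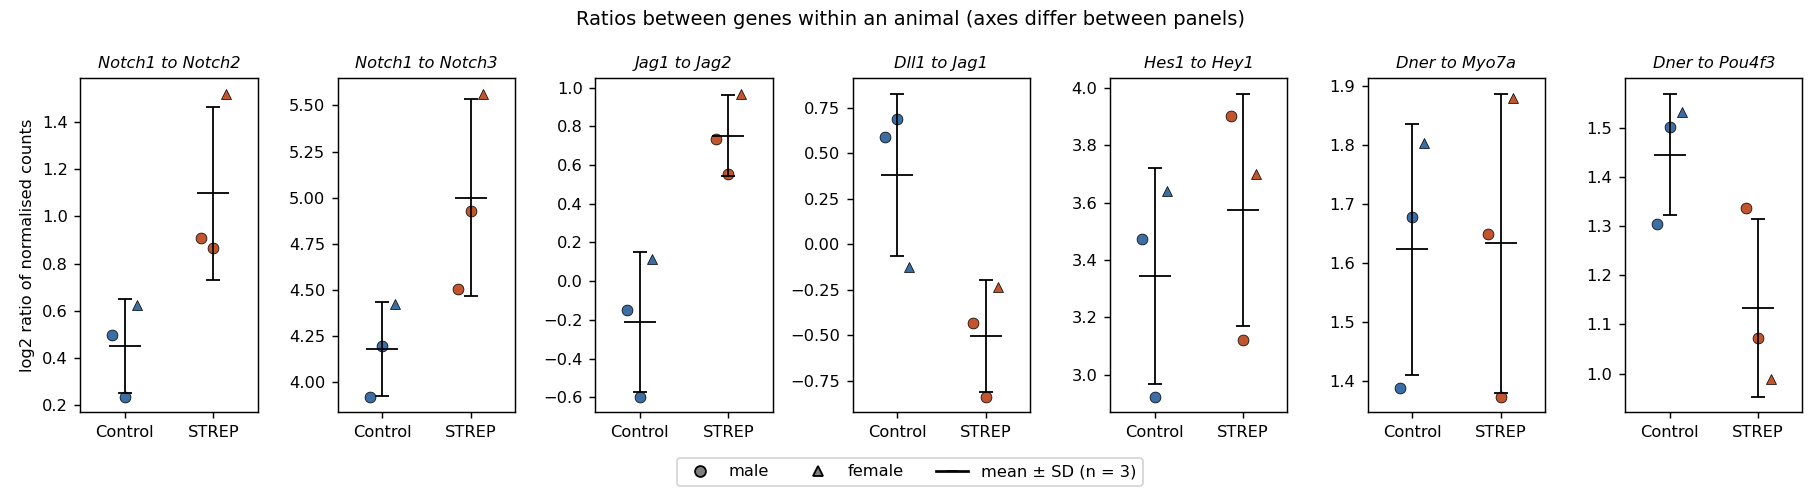
Log2 ratio of normalised counts between 2 genes in each animal (vertical axes, scales differ between panels), with circles for males, triangles for females and bars for the mean ± SD of 3 animals. The STREP animals lie apart from the Control animals for Notch1 to Notch2, Notch1 to Notch3, Jag1 to Jag2 and Dll1 to Jag1, and overlap with them for the 3 other ratios.

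The sexes were compared through the interaction of sex and group, in which each group holds 1 female, so that a difference of sex cannot be told apart from one between single animals. None of the 9 genes with an adjusted p passed it: the DESeq2 adjusted p was 0.999 for each, and by unadjusted p under 0.05 the count was 0 as well. Among the 13134 genes tested for the interaction, 0.259% had an adjusted p under 0.05 and 5.54% an unadjusted one, so 0 of 9 is near the background. The largest difference was that of Dll1, whose change was -0.56 on the log2 scale between the means of the males and 0.13 between the females, a female-minus-male difference of 0.69 ± 0.40 (SE). Notch1 changed by 0.84 in males and 1.05 in females, and Dner by -0.53 and -0.38.

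The rest of the pathway was read from a list of 61 further genes sorted by role, of which 58 were in the table and 55 were tested. Of these, 0 were called higher and 1 was called lower, beside 1.87% and 1.37% of all genes, and their median log2 fold change was 0.0065. The gene called lower was Fbxw7 (ENSRNOG00000010889), the substrate-binding part of a ubiquitin ligase that marks the Notch intracellular domain, among other proteins, for destruction. Fbxw7 had 1589, 1449 and 1509 normalised counts in Control and 748, 632 and 470 in STREP replicates. The highest STREP value was well under the lowest Control value, and the log2 fold change was -1.30 ± 0.20 (SE, DESeq2 adjusted p = 2.22e-08). Fbxw7 was called lower under every alternative run except the Wald test with a null fold change of 1.5. Like Dner, it stands on the study's list, which partly rests on these animals.

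In the other roles no gene was called. Of the 8 other receptors and ligands, 0 were called, and Dll4, a ligand of growing vessels, had the largest difference among those with a mean of at least 100 normalised counts. Its values were 922, 1008 and 774 in Control and 1264, 1152 and 1583 in STREP replicates, without overlap (log2 fold change 0.56 ± 0.19, SE, DESeq2 adjusted p = 0.0766), and it was called higher without STREP replicate 2. Dlk1, a relative of the Delta ligands named here after its values were seen, had 0 counts in all Control libraries and in 1 STREP library, and at most 30.2 normalised counts in the others. The 6 genes for glycosylation and maturation of the receptor lay between -0.20 and 0.29 on the log2 scale, where Pofut1, which adds fucose to the receptor, was highest (DESeq2 adjusted p = 0.801). The 7 tested genes for cleavage of the receptor, ADAM proteases and gamma-secretase subunits, lay between -0.32 (Psen2, a catalytic subunit, DESeq2 adjusted p = 0.394) and 0.17.

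Among the 7 genes for ubiquitination and endocytosis of the ligand, Epn1, an endocytic adaptor, had a log2 difference of 0.74 ± 0.33 (SE, DESeq2 adjusted p = 0.296), and 0 were called. The 10 tested genes of the nuclear complex and its corepressors had a median of 0.011. Rbpj, the DNA-binding partner of the receptor fragment, had 1095, 1115 and 716 normalised counts in Control and 1295, 1436 and 1290 in STREP replicates, without overlap but short of the threshold (0.46 ± 0.20, SE, DESeq2 adjusted p = 0.284). Of the 10 other HES and HEY genes and TLE corepressors, 7 were tested and 0 called. Hey2 had 445, 452 and 271 normalised counts in Control and 587, 690 and 506 in STREP replicates (0.61 ± 0.26, SE, DESeq2 adjusted p = 0.238), Hes3 had 0 counts in all libraries, and Heyl differed by -0.024, both named here after their values were seen. Of the 55 tested genes, the groups did not overlap for 4 with higher STREP values, beside 9.12% of all genes, and for 1 with lower values. The 4 were Dll4, Rbpj, Hey2 and, named here after its values were seen, Numbl, an adaptor related to the Notch inhibitor Numb (0.73, DESeq2 adjusted p = 0.366).

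**Figure D4:**
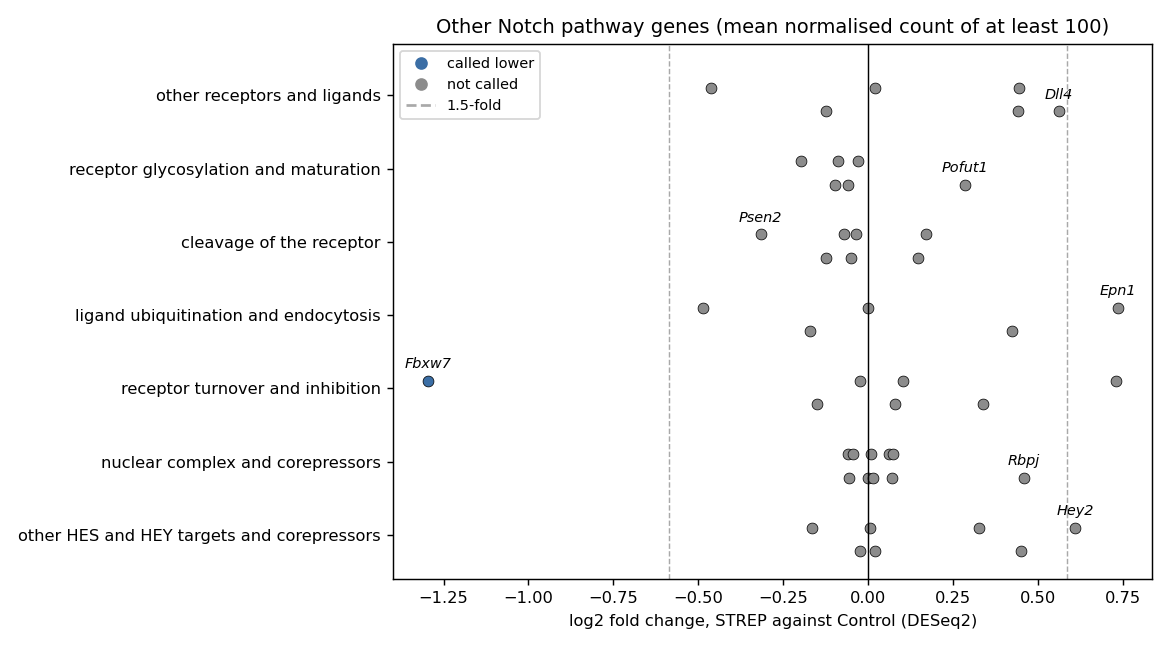
DESeq2 log2 fold change of STREP against Control (horizontal axis) for the 48 other pathway genes with a mean of at least 100 normalised counts, in rows by role, with vertical offsets within a row for legibility and dashed lines at a fold change of 1.5. Fbxw7 at -1.30 is the one gene called, and the others lie between -0.48 and 0.74.

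The genes whose pattern over the 6 animals was most like that of Notch1, among those with a mean of at least 100 normalised counts, were Tmem130, Rps6ka5 and Cry1, a circadian repressor, with Pearson r of 0.995, 0.993 and 0.992 on the log2(normalised count + 1) scale. Tmem130 was called higher (0.76), and the other two were not (0.26 and 0.55). For Dner they were Dbnl, Pgk1, a glycolytic enzyme, and AABR07051450.1, with r of 0.995, 0.994 and 0.993 and log2 fold changes of -0.39, -0.39 and -0.37, none of them called. These values come from the same 6 libraries and size factors and describe likeness only.

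Markers of the other cells in the dissected tissue were read beside these results. The numbers called in each list stand beside 3.24% called among all genes. Of 10 supporting cell markers, 0 were called and none was at 0, but 9 had a positive log2 fold change and 3 had higher STREP values without overlap, beside 9.12% of all genes. Their summed level was 507444 to 633485 normalised counts in Control animals and 651814, 593826 and 1027170 in STREP replicates 1, 2 and 3. In these sums STREP replicate 2 lay within the Control range and STREP replicate 1 just above it. STREP replicate 3 had the highest sum and the highest Notch1, and every STREP animal had Notch1 above the Control range. Most of each sum was Otog, with 729510 normalised counts in STREP replicate 3. The 8 Schwann cell markers summed to 251150 to 344355 in Control and 138010 to 283193 in STREP animals, with 7 of the 8 at a negative log2 fold change. Of these 8, Sox10 was called higher (0.95, DESeq2 adjusted p = 0.000104) and Prx lower (-0.68, DESeq2 adjusted p = 0.0425). The 7 macrophage markers summed to 3409 to 4796 and 4371 to 5205 with 0 called, and the 7 fibroblast markers to 15735 to 21353 and 14931 to 19812 with 0 called. The 6 neuron markers summed to 4148 to 4638 and 4003 to 4316 with 1 called higher, Tubb3 (1.28, DESeq2 adjusted p = 0.0182). The 4 melanocyte markers summed to 25276 to 26079 and 25708 to 38349 with 0 called, a sum made up almost wholly of Pmel, a pigment granule protein with a log2 fold change of 0.29, whereas Tyr, Tyrp1 and Mlana were at -1.06, -1.25 and -0.96 (DESeq2 adjusted p = 0.219, 0.451 and 0.168). The 5 dark cell markers, of the ion-secreting epithelium beside the sensory patches, had the one sum that did not overlap between groups, at 46007 to 51489 in Control and 31988 to 38877 in STREP animals, with 0 called. Most of this sum was Slc12a2 (-0.55, DESeq2 adjusted p = 0.0035, short of the 1.5-fold threshold) and Atp1b2 (-0.36, DESeq2 adjusted p = 0.182). The log2 fold change was negative for 4 of the 5, and that of Bsnd was 0.055. The part of any of these cell types in the Notch1 value was not tested.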

How the data were processed

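RNA from the vestibular epithelium of 3 Control and 3 STREP rats was reverse transcribed, amplified and sequenced, so counts include amplified copies. Per the labels and methods, the authors aligned reads with STAR 2.5.3a to the rat genome Rnor6.0 and quantified genes with RSEM (1.3.0 per the processing notes). They deposited 1 table of expected counts, estimated reads per gene, not scaled between libraries. All values were whole numbers, so rounding changed nothing. Expected counts divide reads between similar genes, which makes close paralogues less certain.

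Groups came from the sample titles, and replicate numbers follow the accession order and carry no pairing. Replicates of a group differed by far more than counting noise, with a chi-square per degree of freedom over genes of at least 49.6. That smallest value was of STREP replicates 1 and 2, whose titles share a number. The other STREP pairs had 80.1 and 170.7, and the Control pairs 53.0 to 87.3. DESeq2 1.42.0 in R 4.3.3 was fitted to all genes with group as the factor, median-of-ratios size factors, Wald tests and independent filtering at 0.05, and p-values were adjusted by Benjamini-Hochberg over all tested genes. Intervals are normal 95% intervals of the log2 fold change. Alternatives were edgeR 4.0.16 quasi-likelihood tests, other scalings and filters, other thresholds, males alone, sex as a covariate, each animal left out, and, added after seeing the data, thinning to equal depth and STREP replicates 1 and 2 summed as 1 sample. Scripts were tested on simulated data. The ratio of Hes1 to Hes5 was planned and not computed, because Hes5 was at 0 in 4 libraries.

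The members, the pathway list, the marker lists and the tests were chosen with earlier results of these data known. Named genes were the 10 members, for each role in the pathway every called gene and the largest absolute log2 fold change at a mean of at least 100 normalised counts, and the 3 genes most like Notch1 and Dner. Dlk1, Hes3, Heyl, Numbl, Strc, Gfi1 and the melanocyte markers were named after their values were seen. So were Otog, Sox10, Prx, Tubb3, Slc12a2, Atp1b2 and Bsnd. Symbols were used as the table gives them, and Kat2b was matched through a RefSeq synonym. Upstream sequences came from RefSeq on GRCr8, a later build than that of the counts.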

Additional observations from a re-analysis of the deposited data

How the results depend on the processing

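No paired analysis was possible because the labels give the groups no shared replicate numbers. Of the 10 members, 1 was called in the full comparison. The count was 0 when a fold change of 1.5 was the null value of the Wald test, where Notch1 (0.92) lost its call, 2 at an adjusted p under 0.05 with any fold, where Dner (-0.47) passed, and 1 to 2 with each animal left out, where Jag1 (0.75) was called without Control replicate 3. Among the other pathway genes the count of 1 became 0 with that null value and ranged from 1 to 2 with each animal left out, Dll4 being added without STREP replicate 2. The causes were not tested. For the 9 members with an adjusted p, 105 of 108 values under other settings held their sign and call. Of the rest, 1 lost its call, 1 gained one, and Hey1 changed sign among males alone (-0.0042). The any-fold threshold, the null fold change of 1.5 and the fit without independent filtering left each log2 fold change as it was. In those settings only the call could change, not the sign. With 1 animal left out, 51 of 54 kept both and 1 became stronger. The 2 that reversed were Hey1 without Control replicate 3 (-0.017; range -0.017 to 0.30) and Notch3 without STREP replicate 1 (-0.076; range -0.076 to 0.23). The ratio of Dner to Myo7a ranged from -0.11 to 0.14 over the omissions and reversed without Control replicate 1 (-0.11) and without STREP replicate 3 (-0.11), whereas the other ratios kept their direction in every omission, Notch1 to Notch3 between 0.53 and 1.07 and Hes1 to Hey1 between 0.019 and 0.46. With STREP replicates 1 and 2 summed, each ratio kept its direction. Depth limits Hes5, which had at most 5 counts, and with 3 animals a group the exact tests of ratios cannot fall below 0.1.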
